A study of Homo sapiens with 8 samples.

Results

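Immediately adjacent CpG pairs are CpGs with no base between them, so that the listed starts differ by exactly 2 bp and the DNA reads CGCG. They were taken from autosomal 1-kb tiles with 10 to 39 CpGs listed in any library, and both CpGs needed 20 or more reads on days 0, 1, 2, 6 and 7. Of 175933 autosomal pairs 2 bp apart, 73639 lay in 1 such tile, and 30817 of these had the reads. The 30817 pairs hold 59015 CpGs in 19298 tiles on 22 chromosomes, so some CpGs belong to 2 pairs. They were set against 64557 spaced pairs, which are successive listed CpGs 20 to 30 bp apart under the same tile and read rules.

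All libraries came from HUES64, which is an established embryonic stem (ES) cell line of human origin, with a genotype that the labels give as DNMT1 knockout at every time point, day 0 included. A time course of withdrawal of DNMT1* ran from day 0 to day 7, with 1 library per day and no replicate, so no difference between single days has a replicate check. Reduced representation bisulfite sequencing (RRBS), which cuts DNA with MspI at CCGG and so samples CpG-rich DNA, gave the methylated and total reads of each CpG. A level is the percent of reads that were methylated, a mean over the cells of a culture and over both alleles.

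DNMT1 copies CpG methylation from the old strand to the new strand after replication. It is known to act processively, methylating successive CpGs before it leaves the DNA. CGCG is its own reverse complement, and the CpGs of any pair, adjacent or spaced, are present on both strands. Without maintenance, methylation is diluted at each round of replication. CpG-rich promoters are mostly unmethylated in embryonic stem cells, whereas promoters of many germline genes are methylated there.

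The sequences below show the places where adjacent pairs could be tied to a gene. A pair was placed in a RefSeq promoter window (GRCh38.p14, 250 bases before to 50 after the gene's start) by the order of distances among 10 successive CpGs, since no coordinates were converted between builds. Of 33725 autosomal windows, 16820 (49.9%) contain CGCG on either strand, 7105 were matched to a single place, and 3008 adjacent pairs (9.76%) were placed in the windows of 1699 genes. These 7 genes were chosen after their values were seen, as examples of methylated, intermediate and unmethylated pairs. Capitals mark the CGCG of the measured pairs. Each sequence runs 5′ to 3′ on the gene's strand, and a cgcg in lower case is not among the 30817 pairs. Coordinates are of GRCh38.p14.
TDRD5, chr1:179591756-179591819, plus strand: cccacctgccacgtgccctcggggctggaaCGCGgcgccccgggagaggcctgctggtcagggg
ADAD1, chr4:122379385-122379502, plus strand: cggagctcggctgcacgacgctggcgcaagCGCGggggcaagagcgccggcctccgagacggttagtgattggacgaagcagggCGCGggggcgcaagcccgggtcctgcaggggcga
OOEP, chr6:73369898-73369955, minus strand: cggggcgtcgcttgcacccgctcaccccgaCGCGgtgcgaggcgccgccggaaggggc
TRPM2, chr21:44349968-44350140, plus strand: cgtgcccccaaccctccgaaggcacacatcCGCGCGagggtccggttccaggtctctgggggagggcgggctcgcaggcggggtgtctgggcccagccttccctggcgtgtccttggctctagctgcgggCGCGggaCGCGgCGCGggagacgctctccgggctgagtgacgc
GNAS, chr20:58841410-58841479, plus strand: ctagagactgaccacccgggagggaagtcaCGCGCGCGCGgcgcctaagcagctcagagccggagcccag
ZNF135, chr19:58059192-58059281, plus strand: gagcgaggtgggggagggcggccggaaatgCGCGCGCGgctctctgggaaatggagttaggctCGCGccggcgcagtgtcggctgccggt
POLA2, chr11:65261712-65261945, plus strand: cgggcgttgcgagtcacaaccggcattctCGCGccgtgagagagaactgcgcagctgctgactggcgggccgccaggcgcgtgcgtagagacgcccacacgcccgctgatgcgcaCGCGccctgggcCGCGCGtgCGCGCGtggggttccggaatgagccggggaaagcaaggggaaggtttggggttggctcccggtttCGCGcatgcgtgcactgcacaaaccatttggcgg

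Most adjacent pairs started with little methylation, and most spaced pairs did not. By the pooled reads of days 0 and 1, 6443 adjacent pairs (20.9%) stood at 80% or more, 6202 (20.1%) between 20 and 80%, and 18172 (59.0%) at 20% or less. Among spaced pairs, 27667 (42.9%) stood at 80% or more, 18634 (28.9%) between 20 and 80%, and 18256 (28.3%) at 20% or less. Adjacent pairs also lay in tiles with more listed CpGs, 24.1 on average against 19.9 for spaced pairs. The classes used days 0 and 1, so levels on those days are a description. Comparisons below are made within a class unless all pairs are named. Slopes over days and shares of the day 0 level also rest on those days.

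Read totals at the 2 adjacent CpGs were nearly equal. The median gap between the totals of the 2 CpGs on day 0 was 4.05% in adjacent pairs and 23.3% in spaced pairs. Both CpGs were given on the same strand in all 5 deep libraries in 98.0% of adjacent pairs and 65.4% of spaced pairs. The median number of reads per adjacent CpG was 56.5, 30, 57, 50 and 51 on days 0, 1, 2, 6 and 7, and 5, 4 and 4 on days 3, 4 and 5. Levels on days 3 to 5 are therefore given over all reads of a class, or with their number of reads. Intervals below cover counting error only, since a read here need not stand for a molecule of its own. Reads summed over the CpGs of a class count a read once at each CpG it covers, so their intervals are too narrow.

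Highly methylated adjacent pairs had a lower level in each library than in the one before. Their mean level was 89.0, 85.7, 77.4, 21.4 and 17.6% on days 0, 1, 2, 6 and 7, against 87.6, 83.7, 73.9, 22.3 and 18.6% in spaced pairs. Counting alone gives these means an error of no more than 0.0545 points, if the CpGs are taken as independent. As an exponential decline, the adjacent pairs lost 22.5% of their level per day, a slope of −0.255 ± 0.025 on the natural log scale (SE, n = 5 libraries). An exact two-sided permutation test over the 120 orders of the days gave p = 0.0083, which is the lowest that 5 days allow. Adjusted by Benjamini-Hochberg over the 10 trends tested, it was 0.021. The class was chosen on days 0 and 1, which can raise the levels of those days and steepen the slope. The p value is therefore not free of that choice. Days 2, 6 and 7 played no part in choosing the class, and over them the level fell from 77.4 to 21.4 and 17.6%.

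In the highly methylated class, adjacent pairs kept more methylation early and less at the end. On day 2 they kept 86.9% of the day 0 level, against 84.3% in spaced pairs, and on day 7 they kept 19.7%, against 21.2% in spaced pairs. Between days 2 and 6 the adjacent pairs kept 27.6% and the spaced pairs 30.2% of the day 2 level. From day 6 to day 7 the adjacent pairs kept 82.1% and the spaced pairs 83.2%.

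Over all reads of a class the same crossing was seen along the 8 libraries in the highly methylated and intermediate classes. The kept share was higher in adjacent than in spaced pairs by 0.73, 2.65, 4.20, 2.23 and 1.01 points on days 1 to 5, and differed by −1.19 and −1.36 points on days 6 and 7. On day 3, where the gap was largest, 58.0% of reads were methylated in adjacent pairs (Wilson 95% interval 57.6 to 58.3%) and 53.5% in spaced pairs (53.4 to 53.7%). Intermediate pairs, between 20 and 80%, gave gaps of 1.42, 4.02, 4.79, 3.39 and 2.71 points on days 1 to 5, and −0.37 and −0.65 points on days 6 and 7. Their mean level was 59.9, 57.0, 51.8, 13.5 and 11.1% on days 0, 1, 2, 6 and 7 when adjacent, against 66.0, 62.2, 55.0, 16.1 and 13.6% when spaced.

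The choice of pairs moved the size of these gaps. With a class limit of 90% in place of 80% the gap was 1.73 points on day 2 and −2.78 points on day 7. Against pairs 10 to 19 bp apart it was 1.38 and −1.98 points, and the sign was kept in each.

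Adjacent pairs that started at 20% or less had little methylation to lose. Their mean level was 0.597% on day 0 and 0.204% on day 7, against 1.46 and 0.453% in spaced pairs. The trend of the log ratio of adjacent to spaced pairs was 0.0084 ± 0.0054 per day (SE, n = 5; exact permutation p = 0.23). Their 2 CpGs differed by 0.700 points on day 0 and 0.335 points on day 7 with 20 reads drawn per CpG, against 1.81 and 0.718 points in spaced pairs.

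The difference in overall rate did not pass the test. The log slope of adjacent minus spaced pairs was −0.0128 ± 0.0038 per day (SE, n = 5), with an exact permutation p of 0.092 and an adjusted p of 0.15. For pairs between 20 and 80% it was −0.0170 ± 0.0049 (exact permutation p = 0.083, adjusted 0.15). A straight trend over days does not describe a gap that changes sign, and the gap on a single day has no test with 1 library per day.

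**Figure D1:**
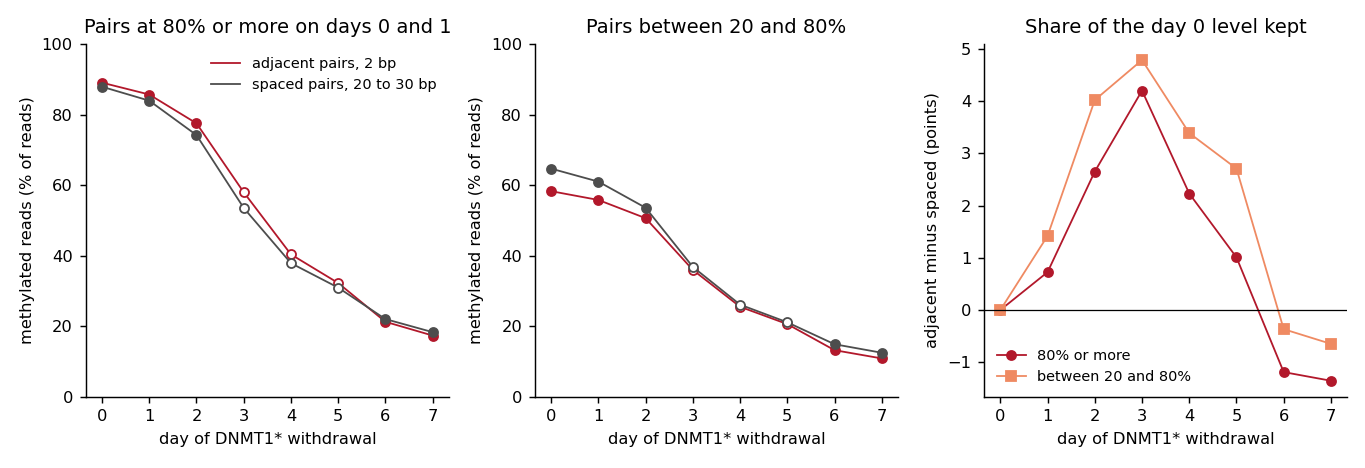
Methylated reads (% of reads, left and middle) by day of DNMT1* withdrawal in adjacent and spaced pairs of 2 starting classes, and the share of the day 0 level kept, adjacent minus spaced (points, right). Open points are the shallow libraries of days 3 to 5; the gap peaks at 4.20 points on day 3 in the highest class and is below 0 on days 6 and 7.

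The order held in most subsets. On day 2 the kept share of highly methylated pairs was higher in adjacent than in spaced pairs on 22 of 22 autosomes, and on day 7 it was lower on 21 of 22. On day 2 the autosomes ranged from 85.6 to 89.7% in adjacent pairs and from 83.4 to 85.4% in spaced pairs. On day 7 they ranged from 18.2 to 20.7% in adjacent pairs and from 19.6 to 22.5% in spaced pairs. Autosomes share the libraries and are not replicates.

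Tile density moved with the day 7 value in adjacent pairs. In tiles of 10 to 14 listed CpGs, 21.4% was kept in adjacent pairs and 21.6% in spaced pairs. In tiles of 30 to 39 listed CpGs, 18.3% was kept in adjacent pairs and 21.1% in spaced pairs. On day 2 the adjacent pairs kept more in all 5 density ranges, 86.4 to 87.6% against 83.6 to 85.9% in spaced pairs. Weighting the spaced pairs to the tile density and starting level of the adjacent pairs gave gaps of 2.41 points on day 2 and −2.08 points on day 7.

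**Figure D2:**
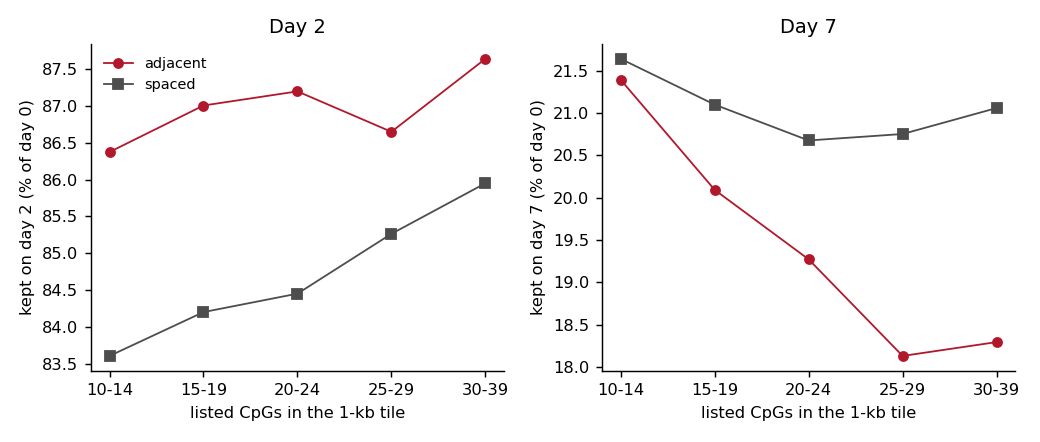
Share of the day 0 level kept (%) on day 2 (left) and day 7 (right) in highly methylated adjacent and spaced pairs, by the number of listed CpGs in the 1-kb tile. Axes do not start at 0; on day 7 the adjacent pairs go down to 18.1% at 25 to 29 CpGs while the spaced pairs stay between 20.7 and 21.6%.

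Single pairs lost to different extents. The middle 90% of highly methylated adjacent pairs kept between 7.60 and 36.0% on day 7, with a median of 18.4%, and spaced pairs kept between 10 and 36.3%, with a median of 20.1%. The shares kept by the 2 CpGs of a pair went together more closely when the CpGs were adjacent. Across 6443 adjacent pairs, Pearson's r between the 2 kept shares was 0.627 on day 7, and across 27667 spaced pairs it was 0.354. These correlations are across pairs that share 1 library and, when adjacent, nearly equal read totals, so they are a description.

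Agreement of the 2 levels was compared with 20 reads drawn per CpG and library. In highly methylated adjacent pairs the mean absolute difference was 7.21, 7.24, 9.47, 9.85 and 9.09 points on days 0, 1, 2, 6 and 7. In spaced pairs it was 9.32, 9.71, 12.1, 11.6 and 10.7 points. The adjacent value was lower in all 5 libraries, by 1.61 to 2.65 points, and on 22 of 22 autosomes on both day 0 and day 7. On all reads the adjacent values were 3.98, 5.16, 4.83, 5.75 and 5.16 points. A draw of 20 takes most of the reads on day 1, when the median was 30, and a smaller part on the other days, when it was 50 to 57. Draws at the 2 adjacent CpGs thus share more reads on day 1, so values of different days are not like for like. Groups within a day are not fully like for like either. Both CpGs were on the same strand in all 5 deep libraries in 98.0% of adjacent and 65.4% of spaced pairs. Median reads per CpG on day 0 were 56.5 and 68. Reads shared by 2 CpGs carry the same counting error, which lowers their difference, and its part in the gap was not tested.

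Whether the lead of adjacent over spaced pairs in agreement changed with the days depended on the measure and the pairs. The gap in mean absolute difference between adjacent and spaced pairs changed by 0.0004 ± 0.057 points each day over all pairs (SE, n = 5 libraries; exact permutation p = 1). For the highly methylated pairs alone it was 0.11 ± 0.052, and the exact permutation p was 0.18. With all reads in place of 20 drawn it was 0.030 over all pairs (exact permutation p = 0.475). With Pearson's r in place of the difference, the lead in r over all pairs was 0.021, 0.026, 0.045, 0.17 and 0.17 on days 0, 1, 2, 6 and 7 (0.0242 per day, exact permutation p = 0.0083). All pairs mix the starting classes, whose shares differ between adjacent and spaced pairs. Within the highest class the lead in r went from 0.24 on day 0 to 0.18 on day 7. Within the lowest class it went from 0.15 to −0.012, and in intermediate pairs from −0.12 to 0.033. The rise over all pairs was thus not seen in each class. In tiles of 10 to 19 listed CpGs the gap in mean absolute difference changed by −0.353 points per day (exact permutation p = 0.017), and against weighted spaced pairs by −0.0463 (exact permutation p = 0.033). The gap over all pairs was −3.66, −3.87, −4.42, −4.04 and −3.73 points on days 0, 1, 2, 6 and 7.

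Most adjacent pairs stood close together at the start and at the end. On day 0, 84.6% of the 30817 pairs were within 10 points (Wilson 95% interval 84.2 to 85.0%), against 70.6% of spaced pairs (70.2 to 70.9%). On day 7, 90.6% of adjacent pairs were within 10 points (90.2 to 90.9%), against 78.1% of spaced pairs (77.8 to 78.4%). Levels near 0 leave little room for a difference, and 59.0% of adjacent pairs started at 20% or less. In the highly methylated class the share was 82.6% in adjacent and 72.0% in spaced pairs on day 0, and 74.0% in adjacent and 66.9% in spaced pairs on day 7.

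The correlation of the 2 levels was lowest on day 0 in the highly methylated class. With 20 reads drawn, across highly methylated adjacent pairs Pearson's r was 0.25, 0.38, 0.38, 0.42 and 0.41 on days 0, 1, 2, 6 and 7. Across spaced pairs it was 0.01, 0.11, 0.13, 0.23 and 0.22. On all reads the adjacent pairs gave 0.49, 0.54, 0.69, 0.64 and 0.63, highest on day 2, and the spaced pairs 0.02, 0.16, 0.27, 0.36 and 0.36. The class fixes a narrow range of levels on day 0, and the 2 levels come from the same library.

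Complete loss at both CpGs was rare. On day 7, 96.9% of highly methylated adjacent pairs had both CpGs below 50%, 2.82% had 1 CpG at 50% or more, and 0.295% had both. Among spaced pairs, 96.0% had both below 50%, 3.73% had 1 and 0.220% had both at 50% or more. Neither CpG had a methylated read among the 20 drawn in 0.528% of adjacent pairs and 0.307% of spaced pairs.

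**Figure D3:**
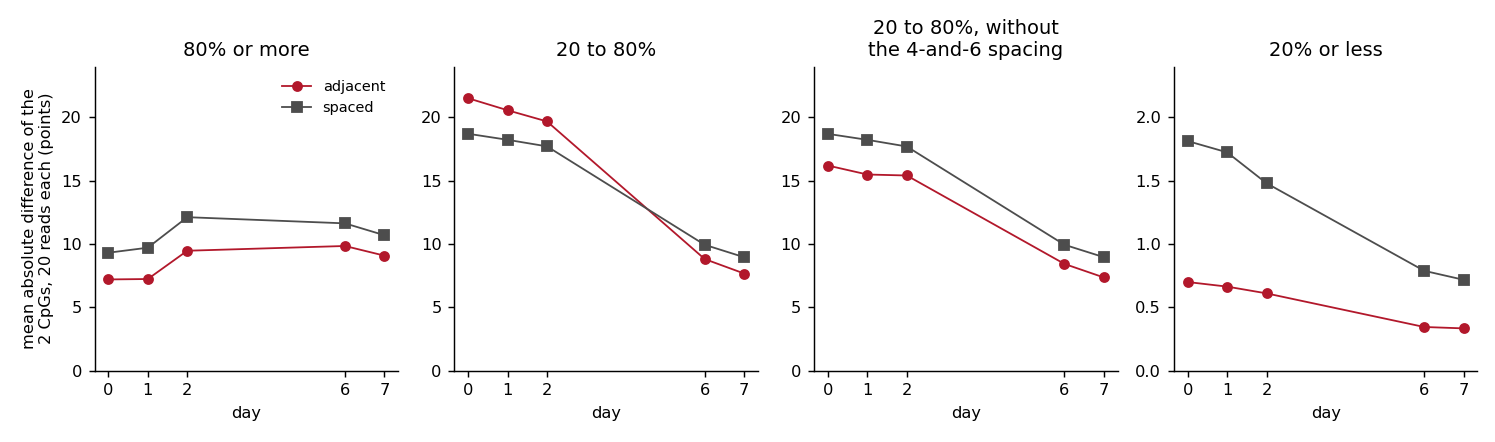
Mean absolute difference between the levels of the 2 CpGs (points, 20 reads drawn per CpG) by day in adjacent and spaced pairs of each starting class. Adjacent pairs lie below spaced pairs in the highest and lowest classes; between 20 and 80% they lie above on days 0 to 2, and below in all 5 libraries once 1 spacing of neighbouring CpGs, picked for its day 0 differences, is left out.

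Measured levels were closest at 2 bp, where the reads of the 2 CpGs are not independent. Among 49 distances from 2 to 50 bp in highly methylated pairs, 2 bp had the smallest mean absolute difference on day 0 and on day 7. The next lowest was 7.45 points at 3 bp on day 0 and 9.40 points at 4 bp on day 7. It also had the lowest share kept on day 7, 19.7%, where the other distances ranged from 20.5% at 29 bp to 23.8% at 13 bp. On day 2 it was the third highest of the 49, with 87.4% kept at 7 bp.

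Some distances stood apart within the spaced range too. At 29 bp, 5022 highly methylated pairs differed by 12.2 points on day 0 and had an r of −0.20. Without them, chosen after the values were seen, the remaining 22645 spaced pairs differed by 8.69 points on day 0 and 10.9 points on day 7, still above the adjacent pairs. They kept 84.3% on day 2 and 21.4% on day 7.

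**Figure D4:**
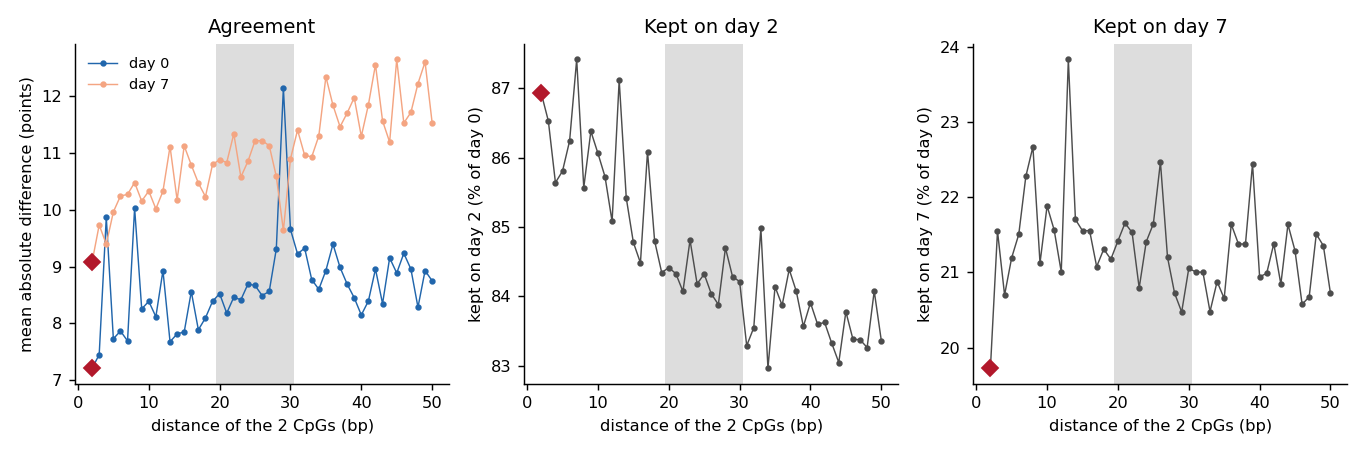
Highly methylated pairs of successive CpGs by distance (bp), with the mean absolute difference of the 2 levels (points, left) on days 0 and 7 and the share of the day 0 level kept (%) on day 2 (middle) and day 7 (right). Diamonds mark adjacent pairs and grey marks the spaced range; the axes do not start at 0, and day 0 values at 4 and 29 bp reach 9.87 and 12.2 points.

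A test within each library asked which pairs hold 2 different CpGs. Fisher's exact test with Benjamini-Hochberg adjustment over 482425 successive pairs at any distance called 1703 of 30817 adjacent pairs (5.53%) on day 0, where 7.73% of all successive pairs were called and 9.23% of spaced pairs. On day 1 it called 872 adjacent pairs (2.83%), with 3.00% of all pairs. On day 2 it called 1328 (4.31%), with 5.04% of all pairs. On day 6 it called 113 (0.367%), with 1.39% of all pairs, and on day 7 it called 84 (0.273%), with 1.11% of all pairs. Spaced pairs had 1.64% called on day 6 and 1.37% on day 7. The test covers counting error in 1 library, and day 1 had the fewest reads of the 5. It takes the reads of the 2 CpGs as independent, which those of adjacent CpGs are not, and adjacent CpGs had a median of 56.5 reads on day 0 against 68 in spaced pairs. The shares called in adjacent and spaced pairs are therefore not like for like.

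The calls sat in the intermediate class. On day 0, 1615 of 6202 adjacent pairs between 20 and 80% were called (26.0%), against 4291 of 18634 spaced pairs (23%). In the highly methylated class only 35 of 6443 adjacent pairs were called (0.543%), against 1257 of 27667 spaced pairs (4.54%). On day 7 the highly methylated class again had 35 adjacent pairs called, and 630 spaced pairs (2.28%).

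Most differences found on day 0 kept their direction. The same CpG was higher in 1686, 1688, 1568 and 1524 of the 1703 pairs on days 1, 2, 6 and 7, which on day 7 is 89.5%. On those days 810, 1192, 62 and 43 were called again in the same direction by Fisher's exact test, and 0 in the opposite direction. The higher CpG averaged 76.0% on day 0 and 14.3% on day 7, and the lower CpG 29.6% and 6.36%. The mean of the lower CpG was 38.9% of the higher on day 0 and 44.5% on day 7, against 58.5% and 62.5% in the 5958 spaced pairs called on day 0. In those spaced pairs 79.8% had the same CpG higher on day 7. The pairs and their higher CpG were picked on day 0 counts, which pushes the day 0 ratio down, so a higher ratio on a later day is no finding.

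Many of these calls shared 1 layout of neighbouring CpGs. In 1333 pairs (4.33%), in 1320 tiles on 22 chromosomes, the next listed CpG was 4 bp away on one side and 6 bp away on the other. This spacing was chosen after the calls were seen, so its counts are a description. It held 919 of the 1703 day 0 calls (54.0%), and 68.9% of its pairs were called, against 784 of 29484 pairs outside it (2.66%). In 918 of the 919 the lower CpG was the one on the side of the 6. A like layout with neighbours at 4 and 10 bp had 132 of 1479 pairs called (8.92%).

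The low CpG was flanked by methylated CpGs on both sides. On day 0 the 4 successive CpGs averaged 70.9% at the neighbour 4 bp away, 61.0% at the pair CpG beside it, 24.4% at the pair CpG on the side of the 6, and 58.4% at the neighbour 6 bp away. On day 7 they averaged 14.1, 11.2, 4.92 and 11.6%. Relative to its own start the low CpG kept a similar share: over all reads 20.2% was kept at it on day 7, 18.5% at its partner, and 19.6 and 20.2% at the outer neighbours. The neighbour 4 bp away had a median of 82 reads on day 0, and the other CpGs of the layout 42 or 43. Spacing orders of this kind recurred, with distances of 4, 2, 6 and 4 bp at 2543 places on autosomes and 4, 8 and 4 bp at 10101. No repeat annotation was used here.

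**Figure D5:**
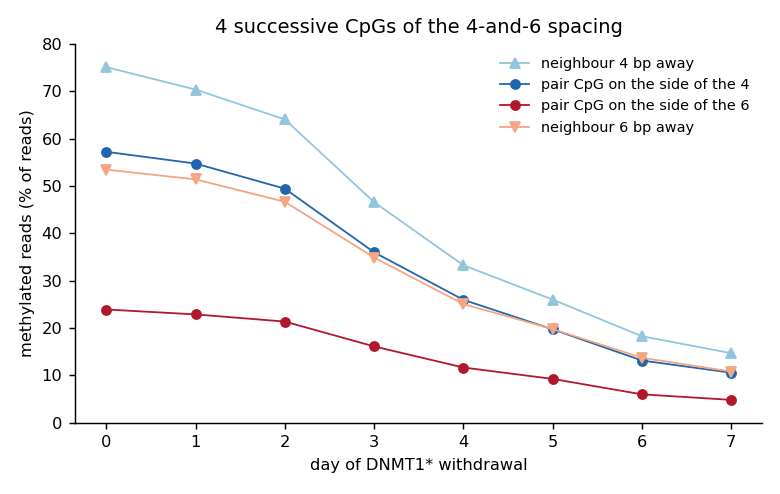
Methylated reads (% of reads) by day at the 4 successive CpGs of 1333 adjacent pairs whose neighbours lie 4 and 6 bp away. The pair CpG on the side of the 6 is lowest on all 8 days, at 23.9% on day 0 and 4.84% on day 7, against 57.2% and 10.6% at its partner.

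Agreement of intermediate pairs moved with this layout. With all pairs between 20 and 80%, adjacent pairs differed by 21.5, 20.6, 19.7, 8.81 and 7.67 points on days 0, 1, 2, 6 and 7, and spaced pairs by 18.7, 18.2, 17.7, 9.94 and 8.96 points. The gap thus passed from 2.80 points above to 1.29 points below spaced pairs, a slope of −0.63 ± 0.043 points a day (SE, n = 5; exact permutation p = 0.0083, adjusted 0.021). Without the 4-and-6 layout, 5214 adjacent pairs differed by 16.2, 15.5, 15.4, 8.43 and 7.36 points, below the spaced pairs in all 5 libraries. The slope of the gap was then 0.17 points a day. The layout was picked for its day 0 differences and leaving it out removed nearly none of the spaced pairs, so this order and sign are partly fixed by the choice and are a description with no test. With the layout kept, the slope also changed sign in other subsets. In tiles of 20 to 39 listed CpGs it was 0.24 (exact permutation p = 0.058), and with 40 reads or more per CpG 0.45 (exact permutation p = 0.025), so the sign of the trend over all intermediate pairs was not kept in these subsets.

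At matched depth, the methylated counts of adjacent CpGs were compared with independent reads. The sum of squared differences in methylated reads was set against what independent reads at the pair's level would give, in pairs with equal totals of 20 to 39 reads. In highly methylated adjacent pairs this ratio was 0.45, 0.60, 0.61, 0.88 and 1.18 on days 0, 1, 2, 6 and 7, from 151, 1224, 165, 156 and 157 pairs. In spaced pairs it was 0.99, 1.0, 1.36, 1.89 and 2.49, from 42, 657, 48, 90 and 97 pairs. The ratio was lower in adjacent than in spaced pairs in all 5 libraries. It moved with the depths that enter: with equal totals of 40 or more reads, adjacent pairs gave 0.79, 0.84, 0.72, 1.11 and 1.08. Highly methylated adjacent pairs were thus closer than independent reads on days 0 to 2 at both depths, and on day 6 only at the lower. Intermediate adjacent pairs outside the 4-and-6 layout gave ratios of 2.35, 2.11, 1.68, 0.80 and 0.89 at 20 to 39 reads. With equal totals of 40 or more reads they gave 5.05, 3.88, 3.29, 1.51 and 1.72. They were thus farther apart than independent reads on days 0 to 2 at both depths, and on days 6 and 7 only at the higher. Intermediate spaced pairs outside the layout gave 2.91, 2.35, 2.62, 1.29 and 1.12 at 20 to 39 reads.

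On the shallow days the same contrast stood out. In 1757 highly methylated adjacent pairs with at least 4 reads at both CpGs in all 8 libraries, 4 reads per CpG gave an r of 0.52, 0.52 and 0.46 on days 3, 4 and 5, against 0.26, 0.28 and 0.27 in 8491 spaced pairs. On days 2 and 6 these pairs gave 0.10 and 0.14, against 0.05 and 0.07 in spaced pairs. A draw of 4 from 4 or 5 reads takes nearly the same reads at both CpGs, and a draw of 4 from about 50 does not, so days of unlike depth cannot be compared in this measure.

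Longer runs of CpGs each 2 bp apart were less methylated. Pairs that stood alone numbered 25832, of which 56.6% stood at 20% or less. Of 4270 pairs in runs of 3 CpGs, 69.4% did, and of 715 pairs in runs of 4 to 7 CpGs, 80.6% did. Among highly methylated pairs, those alone kept 19.9% on day 7, those in runs of 3 kept 18.6%, and the 79 in longer runs kept 18.9%. The longest run, 7 CpGs starting at chr17:58042132-58042135 (hg19), had 1 methylated read of 67 at its first CpG on day 0 (1.49%) and none on the other 7 days.

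Placed promoter pairs were nearly all unmethylated. Of 3008 placed pairs, 2826 (93.9%) started at 20% or less, 77 (2.56%) between 20 and 80%, and 105 (3.49%) at 80% or more. Among all 30817 adjacent pairs, 59.0% started at 20% or less. Placement needed a run of successive CpGs in a short window, which favours CpG-dense windows, and 7105 of 33725 were matched. The share among placed pairs is thus partly set by the matching and does not describe promoters in general. The 105 methylated promoter pairs averaged 89.8, 86.4, 78.6, 17.6 and 13.8% on days 0, 1, 2, 6 and 7. Their 2 CpGs differed by 3.46 points on day 0 and 3.22 points on day 7 over all reads, and in 0 of the 105 did they differ by over 20 points on either day, with 2 of 105 on day 1.

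TDRD5, a tudor-domain gene required for spermatogenesis in mice, has its pair at −46 from the gene's start. Over both CpGs its reads were methylated at 89.4% on day 0 and at 76.2, 76.9, 16.7, 37.5, 0, 11 and 8.40% on days 1 to 7. Days 3, 4 and 5 rest on 6, 16 and 8 calls, from 3, 8 and 4 reads at each CpG. The 2 CpGs stood at 91.5% (43 of 47 reads, Wilson 95% interval 80.1 to 96.6%) and 87.2% on day 0 and at 9.23 and 7.58% on day 7.

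ADAD1, a testis RNA-binding protein gene, has 2 pairs, at −103 and −49. Their reads were methylated at 91.0, 91.5, 85.0, 75, 44.4, 66.7, 15.3 and 19.6% on days 0 to 7. Days 3 to 5 had 12 to 18 calls summed over the CpGs, from 2 to 6 reads per CpG. The deep libraries show little change until day 2 and a low level on days 6 and 7. The largest gap between adjacent CpGs was 7.41 points on day 0 and 12.1 points on day 7.

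OOEP encodes an oocyte protein of the subcortical maternal complex. At its pair, at −28, 93.0, 96.2, 93.7, 23.4 and 9.35% of reads were methylated on days 0, 1, 2, 6 and 7, and days 3 to 5 had 1, 2 and 4 calls over both CpGs.

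TRPM2 encodes a calcium-permeable cation channel, and 5 adjacent pairs lie between −143 and −29. Their reads were methylated at 89.1, 83.9, 69.7, 90, 28.9, 31.3, 18.1 and 13.7% on days 0 to 7. Days 3 to 5 had 30 to 38 calls summed over CpGs that share reads, from only 2 to 7 reads per CpG. The 9 CpGs of these pairs lay between 84.6 and 93.4% on day 0 and between 8.82 and 25% on day 7.

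GNAS lies at an imprinted locus, and which of its transcripts begins at the start used here was not determined. Its run of 5 CpGs between −180 and −172 is a case of intermediate levels that agree. The 5 CpGs stood at 49.3, 47.3, 45.7, 47.1 and 47.1% on day 0, with 70 to 74 reads each, and at 11.7, 12.5, 14.6, 6.45 and 13.4% on day 7. Over the run 47.3, 28.5, 27.8, 17.2 and 11.7% of reads were methylated on days 0, 1, 2, 6 and 7. Adjacent CpGs of the run differed by at most 2.02 points on day 0.

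ZNF135, a KRAB zinc finger gene, shows intermediate levels that do not agree. The 4 CpGs of its run, from −60 to −54, stood at 85.2, 81.4, 33.3 and 63.4% on day 0, with 61, 70, 96 and 101 reads. On days 1 and 2 the third was again the lowest of the 4, at 31 and 22.7%. On day 7 they stood at 11.1, 9.26, 6.82 and 17.0%. The other marked pair, at −27, stood at 61.4 and 44.4% on day 0, with 44 and 45 reads. It stood at 10 and 5.26% on day 6 (40 and 38 reads) and at 33.3 and 24.4% on day 7 (39 and 41 reads).

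POLA2 encodes the regulatory subunit of DNA polymerase alpha and stands for the unmethylated promoters. Its 7 pairs had 0 methylated calls of 788 over 12 CpGs on day 0. The CpGs share reads, and the deepest of them had 0 of 81 reads, which allows a level of up to 3.70% there. Over the 12 CpGs there were 0 of 466, 676, 128, 58 and 68 calls on days 1 to 5, 1 of 788 on day 6 and 0 of 695 on day 7.

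The adjacent pairs with the largest differences on day 0 held a methylated CpG beside an unmethylated one. Positions are those of hg19, and no hg19 gene annotation was used here. At chr7:5385642-5385645 (hg19) the CpGs stood at 97.4 and 0% on day 0, 86.7 and 0% on day 1, 69.0 and 0% on day 2, 24.6 and 0% on day 6, and 20.9 and 0% on day 7. The second CpG had 29, 21, 35, 30 and 43 reads there, and the first 76, 45, 84, 57 and 86. At chr5:84126469-84126472 the levels on those days were 97.2 and 1.61%, 92.3 and 0%, 86.0 and 0%, 41.0 and 0%, and 25.6 and 0%. At chr5:31777250-31777253 they were 93.9 and 0%, 88.2 and 0%, 86.3 and 0%, 38.2 and 0%, and 21.8 and 0%. Fisher's exact test gave adjusted p values of 3.5e-21, 2.1e-31 and 6.7e-22 for the 3 pairs on day 0. The pairs were picked for their day 0 differences among those that this test called on days 0 and 1. Small p values on day 0 are therefore part of the choice and lend it no support. The methylated CpG lost methylation beside a neighbour that had next to none to lose. A C read as T is scored unmethylated in bisulfite data whatever its origin, so a sequence difference from hg19 cannot be told apart from an unmethylated CpG.

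A few highly methylated pairs kept most of their methylation. At chr1:33408658-33408661 (hg19) the CpGs stood at 92.1 and 92.3% on day 0, 66.7 and 87.0% on day 1, 74.3 and 71.1% on day 2, 60.0 and 70.0% on day 6, and 73.2 and 61.4% on day 7. At chr14:105931102-105931105 they stood at 89.1 and 92.6% on day 0, 100 and 100% on day 1, 90.7 and 88.1% on day 2, 78.4 and 40.3% on day 6, and 78.6 and 40.3% on day 7. That pair began alike and ended apart, in both late libraries. At chr1:1457480-1457483 the levels were 88.7 and 96.4% on day 0 and 61.8 and 55.2% on day 7. These 3 pairs were picked as the highest on days 6 and 7, so their late levels are a description.

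Others lost nearly all of it. At chr2:91937033-91937036 (hg19) the CpGs stood at 96.7 and 93.3% on day 0, 90 and 85.0% on day 1, 85.7 and 88.0% on day 2, 2.94 and 3.23% on day 6, and 2.63 and 2.86% on day 7. At chr14:95826763-95826766 the levels were 76.5 and 87.5% on day 0 and 0 and 3.57% on day 7. At chr5:1004250-1004253 they were 78.7 and 83.9% on day 0 and 4.55 and 3.13% on day 7. On days 6 and 7 the CpGs of these pairs had 31 to 38, 28 to 35 and 64 to 75 reads, in the order given. The 3 pairs were picked as the lowest on days 6 and 7, so their late levels are a description. Nearest to the class means was chr7:100946857-100946860, at 88.6 and 89.5% on day 0, 91.7 and 80.6% on day 1, 77.9 and 78.3% on day 2, 28.4 and 16.4% on day 6, and 19 and 14.5% on day 7.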

How the data were processed

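The authors deposited, for each CpG of each RRBS library, its methylated and total reads, written together, and a score that equals the rounded methylated share times 1000 in 100% of lines. Levels were made from the reads, and the score served only as a check. Per the submitters' processing notes the build is hg19. Which aligner, caller, read filters and treatment of duplicates they used is not given in the sources used here. CpG read calls numbered 77691782 to 161534152 per library on days 0, 1, 2, 6 and 7 and 12359218 to 15156251 on days 3 to 5.

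CpGs were joined by position, with starts counted from 1. Each pair weighs equally in a mean level, and 20 reads per CpG were drawn with a fixed seed for agreement. Trends are least-squares slopes over 5 days with exact permutation of the days. Pairs that cross a tile border were not used, and 22 of these met the tile and read rules on both sides. The members, lists and classes were chosen with earlier results of these data known. Regions named by position follow a rule: the largest day 0 differences called on days 0 and 1, the highest and lowest pairs on days 6 and 7 with at most 144 reads on day 0, the longest run, and the pair nearest the class means. The steps were tested on simulated reads. Python 3.11.15, numpy 2.4.6, scipy 1.17.1, pandas 2.3.3, numba 0.67.0 and matplotlib 3.10.9 were used.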

Additional observations from a re-analysis of the deposited data

Results flagged for a closer look

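The X chromosome was not part of the comparison, and adjacent pairs there still held methylation on day 7. Its 82 highly methylated adjacent pairs averaged 88.6, 85.2, 77.3, 21.9 and 18.8% on days 0, 1, 2, 6 and 7 and kept 21.2% on day 7. Its 699 spaced pairs averaged 87.1, 83.7, 74.3, 21.6 and 17.9% and kept 20.5%. These pairs were chosen for 80% or more on days 0 and 1, so levels on those days are a description. The kept share on day 2 was 87.3% in adjacent pairs and 85.3% in spaced pairs. On day 7 the adjacent pairs of the X chromosome kept more than its spaced pairs, the other way round from 21 of 22 autosomes, and this difference was not tested.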

How the results depend on the processing

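The log slope of the difference between adjacent and spaced pairs in the highest class kept its sign and stayed short of the threshold under all 19 alternatives, leaving out days included (−0.0163 to −0.0115 without single days). The log slope of adjacent pairs ranged from −0.282 to −0.247 without single days. Without day 0, 1 or 2 its exact permutation p was 0.083. Without day 0 or day 2 the days left are symmetric about their mean, so 0.083 is the lowest p they allow. Neither this slope nor the slope difference could pass there, so those settings cannot show whether a result weakened. The kept gap on day 2 was 2.24 points with 10 reads, 1.73 with a class limit of 90%, 1.38 against spaced pairs of 10 to 19 bp, 3.16 against 31 to 50 bp, 2.41 after weighting, 2.43 in isolated pairs, and 2.79 and 2.05 in tiles of 10 to 19 and 20 to 39 CpGs. On day 7 it was −2.78 at 90%, −1.98 and −1.33 against those distances, −2.08 after weighting, −1.36 with reads weighted equally, −1.33 in isolated pairs, and −0.57 and −2.23 in those tiles. The agreement trend over all pairs, near 0 as reported, changed sign with 10 reads (−0.0215), with Pearson r in place of the difference (0.0242 in r per day, exact permutation p = 0.0083, towards adjacent pairs), against 10 to 19 bp (−0.141), after weighting (−0.0463, p = 0.033), in isolated pairs (−0.0469), on the same strand (−0.0116), in tiles of 10 to 19 CpGs (−0.353, p = 0.017), without the deepest percentile (−0.000419), and without single days (−0.0477 to 0.0450). The trend in intermediate pairs was −0.102 with 10 reads, 0.448 with 40, −0.176 against 31 to 50 bp, −0.0232 over 8 libraries at 4 reads, 0.244 in tiles of 20 to 39 CpGs, 0.166 without the 4-and-6 layout, and −0.672 to −0.596 without single days. The cause was not tested. Within the highest class the lead of adjacent pairs in Pearson r was smaller on day 7 than on day 0 (0.18 against 0.24). In the lowest class adjacent minus spaced r was 0.15 on day 0 and −0.012 on day 7, so no lead was left. In intermediate pairs it was −0.12 and 0.033 on those days, and 0.16 and 0.086 without the 4-and-6 layout. Pairs within 10 points on day 0 and day 7 made up 76.7% and 84.9% with 10 reads, 88.8% and 91.4% with 40, 88.1% and 93.8% on all reads, 83.4% and 89.95% when isolated, 92.4% and 97.9% at 20 points, and 87.2% and 91.1% without the layout. Fisher's exact test called 3367 of 57484 adjacent pairs on day 0 and 2601 of them on day 2 with 10 reads. With 40 reads it called 207, 111, 154, 38 and 27 of only 6396 pairs on days 0, 1, 2, 6 and 7. With Bonferroni adjustment it called 474, 93, 249, 14 and 12 of 30817 pairs on those days. Without the layout it called 784, 363 and 556 of 29484 pairs on days 0 to 2. The number of pairs and their depth differ between these settings, so the counts cannot be set against each other as rises or falls. Shares over all successive pairs are not given for these settings. The ratio to independent reads was 0.62, 0.58, 0.56, 0.87 and 1.02 for any totals of 20 to 39 reads, and 0.79, 0.84, 0.72, 1.11 and 1.08 for equal totals of 40 or more. Alternatives for the kept shares, the intermediate pairs and the 4-and-6 layout, and the draw of 4 reads, were chosen after seeing the data. With 4 or 5 reads per CpG, days 3 to 5 give no level for a single pair. No paired analysis was possible because each day has 1 library.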
